A study of Mus musculus with 16 samples.

Results

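A set of 40 genes was followed through the RUS knockdown experiment: *Myc*, *Mycn* and 38 genes whose proteins build ribosomes. They were chosen by symbol, each stands on 1 line of the deposited tables, and the tables share 55365 lines between the days. The cultures were neural stem cells (NSC) from cortices of C57BL/6 mouse embryos at E15 to E16, pooled from brains of both sexes. They carried a lentivirus with a scrambled control shRNA (shRNA-CON) or with a shRNA against the long noncoding RNA *RUS* (shRNA-RUS), added 1 day after seeding. RNA was taken on day 5 and day 7 after seeding, which made 4 groups of 4 libraries. The cells were kept with FGF2 until differentiation was started 5 days after seeding, so that day 7 also differs from day 5 in the medium. The labels do not say whether the 4 libraries of a group came from separate cell preparations, and the p-values then measure only the spread between these libraries.

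A ribosome is made in the nucleolus. RNA polymerase I copies the rDNA into a long precursor, small nucleolar ribonucleoproteins (snoRNPs) guide its chemical modification, and large assemblies of processing factors cut and fold it into the small and the large subunit. Box C/D snoRNPs methylate the precursor, and box H/ACA snoRNPs convert uridine to pseudouridine. *Myc* and *Mycn* encode related transcription factors that bind the sequence CACGTG (the E-box) as partners of MAX and are known as activators of growth, including ribosome production. *Mycn* is the family member best known from neural progenitors. Proliferating cells make many ribosomes, and the demand falls when they leave the cell cycle.

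The values are TPM, which is per length of transcript and relative to the total of a library. They were divided by a factor for each library and are called scaled TPM here. The levels printed use factors set from all 16 libraries, and the tests of the knockdown within a day use factors set from the 8 libraries of that day, so that a fold change can differ slightly from the ratio of the printed means. The knockdown was tested within each day with limma on log2(scaled TPM + 0.1), two-sided, and a call required a p under 0.05 after Benjamini-Hochberg adjustment across all genes tested. All 40 genes passed the filter at a mean of 0.1 TPM. On day 5, 17.9% of all genes tested were called lower and 14.8% higher in shRNA-RUS, and on day 7, 25.8% lower and 23.4% higher. Of all calls on day 5, 3349 were higher and 4034 lower, and with TPM as deposited 1768 were higher and 6037 lower, and with scaling to the 75th percentile 4359 and 3143. Over all genes, the median log2 fold change was −0.061 on day 5, −0.029 on day 7 and, with TPM as deposited, −0.21 on day 5, and the values of the 40 genes are to be read against these shifts. The depth of the libraries is unknown, since TPM keeps no count of reads.

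*RUS* itself is listed as *Gm20754*, at 0.11 to 0.24 TPM with shRNA-CON and 0 to 0.32 TPM with shRNA-RUS on day 5, and at 0.26 to 0.72 and 0 to 0.54 TPM on day 7. It was not called on either day (log2 fold change −0.40, limma adjusted p = 0.519 and −1.28, limma adjusted p = 0.114). These TPM lie near the 0.1 added before the log, so the missing call does not show that *RUS* was not reduced. The paper reports lower *RUS* by RT-qPCR in this experiment. The neural stem cell markers *Nes*, *Sox2*, *Pax6*, *Vim*, *Hes5* and *Fabp7* were above 0 in every group. Their summed TPM, which follows the most abundant of them, was higher in shRNA-RUS without overlap on both days, at 11777 to 13152 TPM with shRNA-CON and 15604 to 17211 TPM with shRNA-RUS on day 5 and 6447 to 6943 and 7009 to 7731 TPM on day 7. Of the 6 genes, 3 were called higher and 2 lower on day 5 and 2 higher and 2 lower on day 7, with *Nes* (−0.87 and −1.19) and *Hes5* (−0.67 and −0.83) lower on both days. The 6 microglia markers summed to 193 to 207 TPM with shRNA-CON and 83.7 to 105 TPM with shRNA-RUS on day 7, and the 5 endothelial markers to at most 6.99 TPM in any library. All 15 proliferation genes were lower in shRNA-RUS on both days, among them *Mki67* (−1.16 and −1.07 on the log2 scale) and *Pcna* (−0.50 and −0.89). In RNA from whole cultures, fewer cells of a type and less RNA per cell cannot be told apart. Replicate 4 of shRNA-RUS on day 5 stood apart from the other 3 libraries of its group. Its library factor in the day 5 fit was 1.009, against 0.920 to 0.939 in those 3. Without it, 8522 genes were called on day 5 in place of 7383, and without any other single library of that day 5736 to 6478. Values without it are given where it matters, also for the ribosomal proteins described further on.

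The E-box CACGTG, which reads the same on both strands, was searched in 300 bases of promoter, from 250 before to 50 after the start site, in the RefSeq table for GRCm38.p6, which matched 33 of the 40 genes. It was present in 5 of the 33 (15.2%), in 8.09% of the 27025 genes in the table and in 8.91% of its 17492 protein-coding genes. The 5 windows are shown because they place the known MYC sequence within the set, with the E-box in capitals and up to 9 bases on either side, 5′ to 3′ on the gene's strand:
Nop2: tccctggatCACGTGtgttccggt
Utp20: cactaactaCACGTGaggaaaa
Pes1: taggcagggCACGTGcgggaggaa
Mybbp1a: ttctgagccCACGTGtttg
Wdr43: ccgggcgaaCACGTGgctgccgcg
They lie at chr6:125131814-125131837, plus strand (*Nop2*), chr10:88826765-88826786, minus strand (*Utp20*), chr11:3963968-3963991, plus strand (*Pes1*), chr11:72441358-72441376, plus strand (*Mybbp1a*) and chr17:71616223-71616246, plus strand (*Wdr43*). The word CACGCG, on either strand as CACGCG or CGCGTG, stood in 11 of the 33 promoters (33.3%), in 10.5% of all genes in the table and in 13.7% of the protein-coding ones. The other factors of the small and the large subunit held CACGCG in 30.6% and 35.0% of their promoters and CACGTG in 33.3% and 17.5%. *Pes1* and *Mybbp1a* held both words. The E-box of *Nop2* starts 60 bases before the start site, and those of the other 4 start within the first bases of the transcript, between 2 (*Pes1*) and 40 (*Mybbp1a*) bases after it. None of the 5 genes with CACGTG was called on day 5, against 17.9% lower and 14.8% higher among all genes. Their log2 fold changes that day ran from −0.29 to 0.024. On day 7, *Utp20*, *Pes1*, *Mybbp1a* and *Wdr43* fell (−0.24, −0.22, −0.16 and −0.25) and *Nop2* was at 0.025. Of all genes, 25.8% were lower on that day. Among the genes with CACGCG, *Ddx21*, *Utp15* and *Nolc1* were called lower and *Nop10* higher on day 5. On day 7 all genes with CACGCG but *Noc2l* were called lower. *Mycn*, *Nop56* and *Nop58*, which had some of the largest decreases on day 5, held no CACGTG in this window. *Fbl*, also among the largest decreases of that day, had no promoter entry. No relation of these words to the response was tested.

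The stretch before the start site is shown for 4 genes whose values carry the account that follows, *Mycn*, *Nop56* and *Nop58*, which fell on both days, and *Nop10*, which was higher on day 5 and lower on day 7. CG pairs are in capitals, since promoters of genes of this kind are usually rich in them:
Mycn: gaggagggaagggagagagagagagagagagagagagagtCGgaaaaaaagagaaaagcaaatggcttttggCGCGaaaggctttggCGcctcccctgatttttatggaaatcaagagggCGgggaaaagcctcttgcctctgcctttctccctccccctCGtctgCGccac
Nop56: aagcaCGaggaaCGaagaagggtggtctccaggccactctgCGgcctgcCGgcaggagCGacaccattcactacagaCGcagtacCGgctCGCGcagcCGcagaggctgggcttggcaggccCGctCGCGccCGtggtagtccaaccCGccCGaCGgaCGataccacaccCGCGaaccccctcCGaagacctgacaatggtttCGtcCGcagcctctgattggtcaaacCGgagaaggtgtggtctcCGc
Nop58: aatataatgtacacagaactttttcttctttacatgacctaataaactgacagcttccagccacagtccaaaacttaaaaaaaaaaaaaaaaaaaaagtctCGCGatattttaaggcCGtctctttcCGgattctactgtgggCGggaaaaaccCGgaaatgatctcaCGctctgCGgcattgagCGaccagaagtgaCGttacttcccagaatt
Nop10: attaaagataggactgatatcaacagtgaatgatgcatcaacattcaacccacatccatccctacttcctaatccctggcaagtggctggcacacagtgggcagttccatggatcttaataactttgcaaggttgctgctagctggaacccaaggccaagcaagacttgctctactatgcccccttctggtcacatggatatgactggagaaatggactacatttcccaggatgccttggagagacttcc
These stretches lie at chr12:12941915-12942086, minus strand (*Mycn*), chr2:130274162-130274411, plus strand (*Nop56*), chr1:59684756-59684970, plus strand (*Nop58*) and chr2:112261676-112261925, plus strand (*Nop10*) in GRCm38.p6. Each is taken from the 250 bases before the RefSeq start site, without bases that GENCODE vM21 counts to the gene. In the 250 bases, the 4 genes hold 11, 25, 11 and 0 CG pairs. The median was 18 over the 33 matched members and 10 over 17492 protein-coding genes in the table. No property of these stretches was tested against the response.

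On day 5, 17 of the 40 genes were lower in shRNA-RUS and 2 were higher (*Nop10* and *Nob1*), against 17.9% lower and 14.8% higher among all genes tested. The median log2 fold change of the 40 was −0.17, which is −0.11 relative to all genes. On day 7, 26 were lower and 1 was higher (*Tcof1*), against 25.8% and 23.4%, with a median of −0.25, or −0.22 relative to all genes. Between the days, 14 genes were lower on both, 3 were lower on day 5 and not called on day 7, 11 were lower on day 7 and not called on day 5, *Nop10* was higher on day 5 and lower on day 7, *Nob1* was higher on day 5 and *Tcof1* on day 7, and 9 passed on neither. In simulated data, a change of 1.2-fold was called in 10% of genes on day 5 and 22% on day 7. For 1.5-fold these were 54% and 76%. A call on 1 day only does not by itself show that the effect differed between the days. The members are not independent replicates, and the share of all calls that are lower moved with the scaling on day 5: with TPM as deposited, 24 of the 40 were lower and 0 higher (by limma, 0 higher at an unadjusted p under 0.05), and with scaling to the 75th percentile 12 were lower and 2 higher. On day 7, 25 to 29 were lower and 1 higher in every alternative. Without replicate 4 of shRNA-CON on day 5, 11 were lower and 1 higher, and without replicate 4 of shRNA-RUS 18 were lower and 4 higher; any other library left out gave 12 to 15 lower and 1 higher (*Nop10*).

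**Figure D1:**
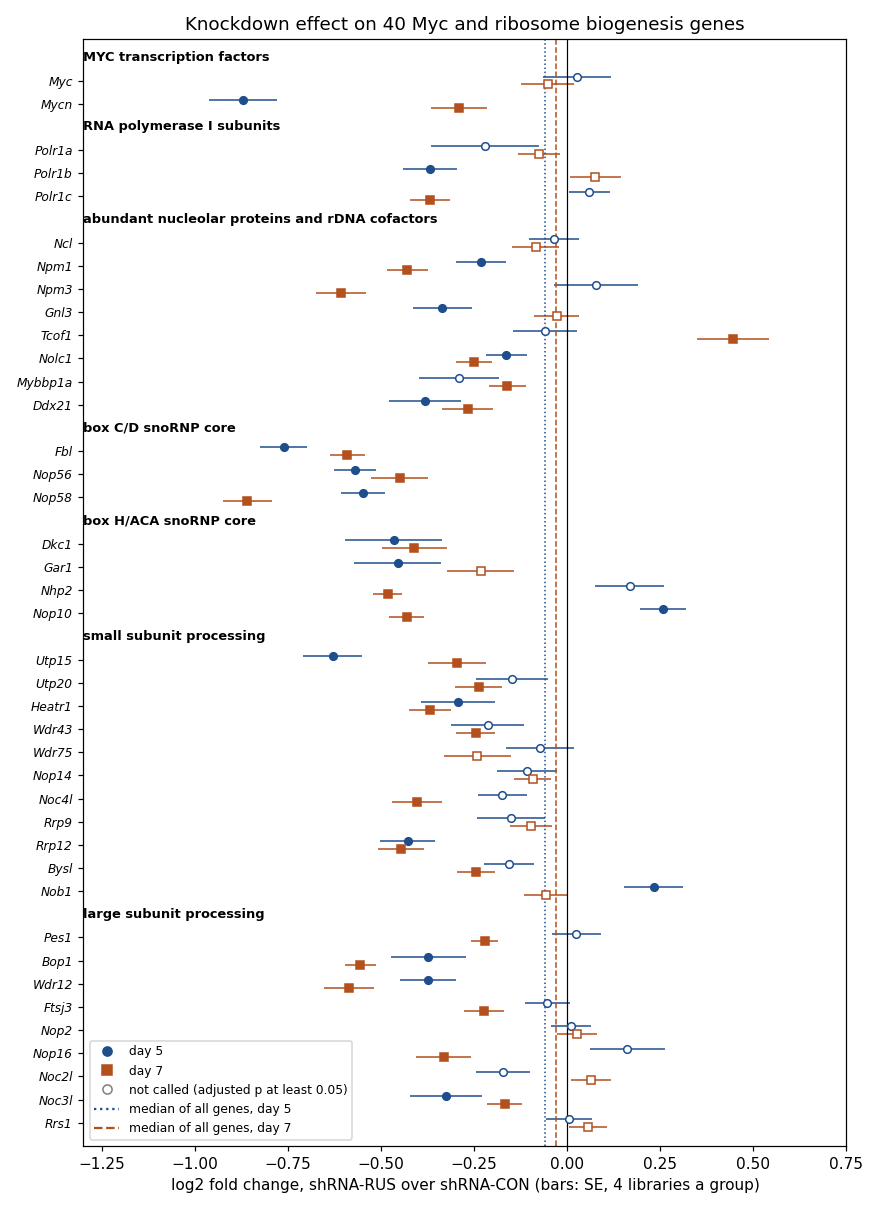
Log2 fold change of shRNA-RUS over shRNA-CON (horizontal axis) with its SE for the 40 genes, grouped by role, on day 5 (blue circles) and day 7 (orange squares), 4 libraries a group. Filled symbols passed the test. Below 0 lie 30 of the 40 values on day 5 and 35 on day 7, the lines mark the medians of all genes at −0.061 and −0.029, and the 3 box C/D genes lie between −0.86 and −0.45 on both days.

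Of the pair of MYC factors, *Mycn* was lower in shRNA-RUS on both days, and *Myc* was not called on either. *Mycn* (chr12:12936093-12941914, minus strand) had 9.97, 10.2, 10.3 and 11.6 scaled TPM in the 4 shRNA-CON libraries of day 5 and 5.74, 6.17, 5.95 and 4.94 in the 4 with shRNA-RUS. The groups did not overlap, and the means were 10.5 ± 0.722 and 5.70 ± 0.537 (SD, n = 4; log2 fold change −0.87, SE 0.091, limma adjusted p = 0.000145). On day 7 its libraries had 8.74, 9.61, 9.92 and 8.26 in shRNA-CON and 6.95, 7.20, 7.52 and 7.78 in shRNA-RUS, again with no overlap but closer together (log2 fold change −0.29, SE 0.075, limma adjusted p = 0.00994). *Mycn* passed as lower in each of 19 alternatives on both days.

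*Myc* (chr15:61985391-61990374, plus strand) had 13.4, 14.8, 14.04 and 16.4 with shRNA-CON and 14.5, 15.8, 16.3 and 13.1 scaled TPM with shRNA-RUS on day 5. On day 7 the libraries had 19.5, 19.99, 18.98 and 20.4 and 17.5, 18.8, 17.6 and 21.8. The groups overlapped on both days and no change was called (log2 fold change 0.026, SE 0.092, limma adjusted p = 0.861 on day 5; log2 fold change −0.053, SE 0.071, limma adjusted p = 0.575 on day 7). The standard errors bound these estimates but do not show that *Myc* was equal in the groups.

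The ratio of *Mycn* to *Myc* within a library does not depend on the library factor. In TPM as deposited it was 0.741, 0.688, 0.737 and 0.705 in shRNA-CON on day 5 and 0.397, 0.391, 0.364 and 0.377 in shRNA-RUS. On day 7 it was 0.447, 0.481, 0.523 and 0.404 in shRNA-CON and 0.397, 0.384, 0.428 and 0.357 in shRNA-RUS. The day 5 ratios with shRNA-RUS were thus below all control ratios of either day, while the groups of day 7 overlapped. The mean log2 ratio was −0.48 ± 0.052 and −1.39 ± 0.056 on day 5 (SD, n = 4), a difference of −0.91 (exact permutation test, two-sided, p = 0.0286, adjusted over 4 comparisons 0.0571). On day 7 it was −1.12 ± 0.16 and −1.36 ± 0.11, a difference of −0.24 (exact permutation p = 0.0571, adjusted 0.0762). From day 5 to day 7 the ratio fell by 0.64 on the log2 scale in shRNA-CON (exact permutation p = 0.0286, adjusted 0.0571), and in shRNA-RUS it differed by 0.033 (exact permutation p = 0.6). With 4 libraries against 4, 0.0286 is the smallest p that this test allows, and 2 of the 4 comparisons reached it; none passed after adjustment. The principal transcripts of the genes differ in length (2522 and 1365 nt). With the length trend described further on removed, *Mycn* was at −0.28 and *Myc* at 0.11 for the knockdown on day 7, and at 0.40 and 0.72 from day 5 to day 7 in shRNA-RUS, further apart than in the ratio.

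**Figure D2:**
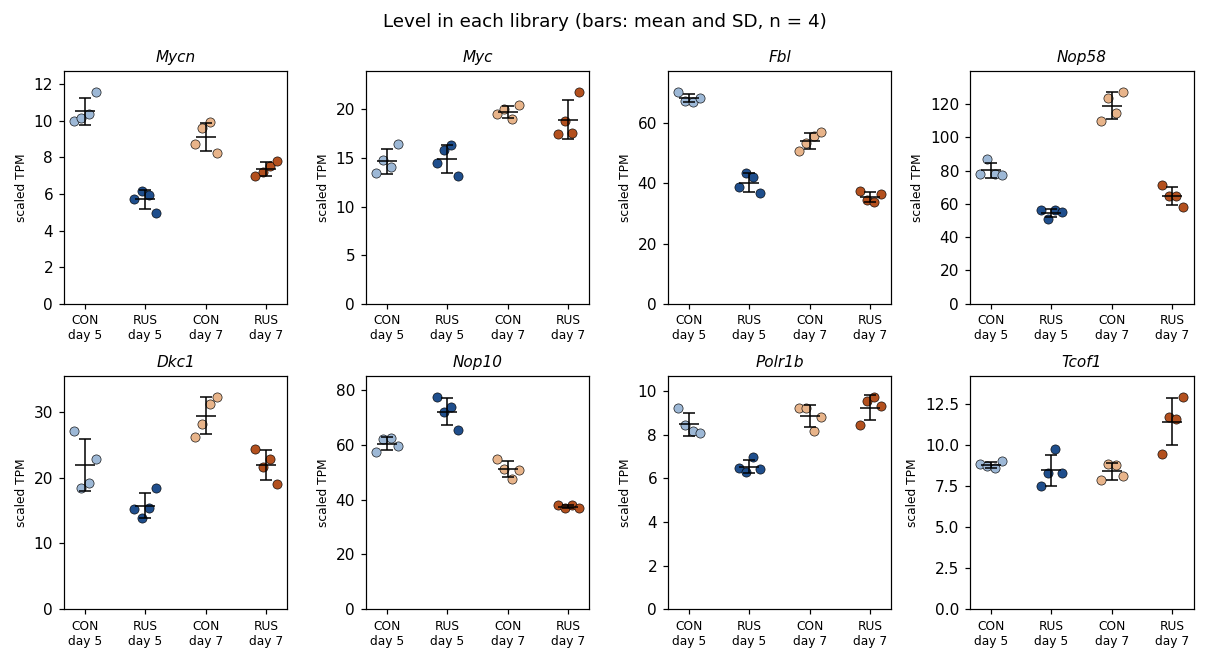
Scaled TPM (vertical axes, from 0) of 8 genes in each of the 16 libraries, by shRNA and day; bars give the mean and SD of 4 libraries. *Mycn* lies between 4.94 and 6.17 in shRNA-RUS on day 5 and between 9.97 and 11.6 in shRNA-CON, *Myc* overlaps, and *Nop10* is higher in shRNA-RUS on day 5 and lower on day 7.

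Box C/D core proteins were lower on both days, with 3 of 3 genes lower on each. Of all genes tested, 17.9% were lower on day 5 and 25.8% on day 7. This was the role with the largest median change (−0.57 on day 5 and −0.59 on day 7). *Fbl* (chr7:28169710-28179269, plus strand) encodes fibrillarin, the methyltransferase of these particles. It had 70.4, 67.5, 67.2 and 68.5 scaled TPM with shRNA-CON and 38.7, 43.6, 42.1 and 36.9 with shRNA-RUS on day 5 (log2 fold change −0.76, SE 0.062, limma adjusted p = 4.67e-05). Its day 7 libraries had 50.8, 53.3, 55.6 and 56.9 and 37.5, 34.4, 33.9 and 36.5 (log2 fold change −0.59, SE 0.047, limma adjusted p = 7.32e-06). The groups stood apart on each day, and the highest shRNA-RUS library of either day (43.6) lay below the lowest shRNA-CON library of either day (50.8).

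*Nop56* (chr2:130274430-130279313, plus strand) encodes a scaffold protein of the same particles. Its libraries had 79.3, 75.8, 73.04 and 77.3 with shRNA-CON and 54.5, 50.97, 52.9 and 47.2 with shRNA-RUS on day 5 (log2 fold change −0.57, SE 0.057, limma adjusted p = 0.000116), and 82.1, 80.6, 77.2 and 83.4 and 64.99, 64.1, 50.5 and 55.8 on day 7 (log2 fold change −0.45, SE 0.075, limma adjusted p = 0.000807). *Nop58* (chr1:59684971-59719044, plus strand), its paralog and partner, had 77.8, 87.2, 78.2 and 77.2 and 56.3, 50.9, 56.4 and 54.9 on day 5 (log2 fold change −0.55, SE 0.058, limma adjusted p = 0.000158). On day 7 the values were 109.6, 124, 115 and 127 in shRNA-CON and 71.4, 64.9, 64.9 and 58.3 in shRNA-RUS (log2 fold change −0.86, SE 0.066, limma adjusted p = 5.85e-06). The control level of *Nop58* was higher on day 7 than on day 5 (0.57, limma adjusted p = 2.71e-06), and the knockdown libraries rose less (0.25, limma adjusted p = 0.00384). All 3 genes passed as lower in each of 19 alternatives on both days. *Nop56* and *Nop58* are also hosts of snoRNAs, with 5 and 4 annotated inside them in GENCODE vM21; of the 40 genes, 6 hold one, against 279 of 21951 protein-coding genes (1.27%), and polyA-selected TPM say nothing of the snoRNAs themselves.

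The 4 box H/ACA core genes split on day 5, with 2 lower (50.0%) and 1 higher (25.0%), against 17.9% and 14.8% of all genes. *Dkc1*, the pseudouridine synthase dyskerin, had 27.1, 18.5, 19.1 and 22.9 in shRNA-CON and 15.2, 13.8, 15.4 and 18.4 scaled TPM in shRNA-RUS (log2 fold change −0.47, SE 0.13, limma adjusted p = 0.0224). The lowest control library lay just above the highest knockdown library, and the call was lost when any 1 of replicate 4 of shRNA-CON or replicates 1, 2 and 3 of shRNA-RUS was left out (limma adjusted p of 0.0536 to 0.0635). *Gar1* had 36.2, 31.8, 32.4 and 25.4 and 20.4, 26.4, 22.8 and 21.6, with overlap (log2 fold change −0.46, SE 0.12, limma adjusted p = 0.0149). *Nop10* (chr2:112261926-112263269, plus strand), the smallest protein of the particle, went the other way, with 57.3, 62.1, 62.4 and 59.6 in shRNA-CON and 77.4, 71.9, 73.8 and 65.4 in shRNA-RUS and no overlap (log2 fold change 0.26, SE 0.062, limma adjusted p = 0.0119). With TPM as deposited its difference was 0.098 (limma adjusted p = 0.157), which is above the all-gene median of −0.21 of that scale. *Nhp2* had 70.05 ± 4.74 and 78.9 ± 9.32 (SD, n = 4) and was not called (0.17, limma adjusted p = 0.199).

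On day 7, 3 of the 4 were lower and none was higher. *Nop10* had 54.8, 51.2, 47.5 and 50.7 in shRNA-CON and 38.00, 36.9, 37.95 and 36.8 in shRNA-RUS (log2 fold change −0.43, SE 0.046, limma adjusted p = 4.39e-05), so its knockdown libraries went from the highest of the 4 groups to the lowest. *Nhp2* had 62.3, 60.6, 64.6 and 62.4 and 46.8, 42.3, 44.3 and 43.5 (log2 fold change −0.48, SE 0.040, limma adjusted p = 8.36e-06). *Dkc1* had 29.5 ± 2.77 and 21.9 ± 2.28 (SD, n = 4; −0.41, limma adjusted p = 0.00346). The libraries of these 3 genes did not overlap between the shRNAs. *Gar1* was at 28.2 ± 4.24 and 23.6 ± 0.435 and was not called (−0.23, limma adjusted p = 0.0581).

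RNA polymerase I subunits gave 1 call on each day, for different genes. Both calls were lower, 33.3% of the 3 genes on each day. Among all genes, 17.9% were lower on day 5 and 25.8% on day 7. *Polr1b*, the second largest subunit, had 9.22, 8.46, 8.19 and 8.08 with shRNA-CON and 6.47, 6.29, 6.96 and 6.41 scaled TPM with shRNA-RUS on day 5 (log2 fold change −0.37, SE 0.073, limma adjusted p = 0.00434) and 8.87 ± 0.507 and 9.26 ± 0.575 on day 7 (SD, n = 4; 0.075, limma adjusted p = 0.402). *Polr1c*, a subunit shared with RNA polymerase III, had 47.7 ± 2.03 and 49.7 ± 2.31 on day 5 (0.059, limma adjusted p = 0.454). Its libraries of day 7 had 50.3, 45.9, 45.2 and 48.5 and 38.5, 33.4, 37.1 and 36.7, without overlap (log2 fold change −0.37, SE 0.053, limma adjusted p = 0.000323). The largest subunit, *Polr1a*, was not called on either day (−0.22 and −0.076; −0.0054 and, called lower, −0.21 with the trend on transcript length removed), and its shRNA-RUS libraries of day 5 spread from 12.9 to 21.8.

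Abundant nucleolar proteins and rDNA cofactors had 4 of 8 genes lower on day 5 (50.0%, against 17.9% of all genes) and 5 of 8 lower (62.5%, against 25.8%) and 1 higher on day 7. *Npm1*, the nucleolar chaperone nucleophosmin and the most abundant member, had 369.8, 432, 391 and 394 with shRNA-CON and 365, 307, 344 and 334 with shRNA-RUS on day 5 (log2 fold change −0.23, SE 0.068, limma adjusted p = 0.0279), and 390.2, 428, 416 and 459.6 and 328, 320.5, 308 and 288 on day 7 (log2 fold change −0.43, SE 0.055, limma adjusted p = 0.000148). Its groups did not overlap on either day. *Npm1* has processed pseudogenes, so that reads may have been split among copies. *Ncl*, which encodes nucleolin, another abundant nucleolar protein, was not called (−0.035, limma adjusted p = 0.732 on day 5; −0.085, limma adjusted p = 0.310 on day 7).

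*Tcof1*, the rDNA cofactor treacle, was the 1 gene that was higher on day 7. It had 7.86, 8.87, 8.82 and 8.12 scaled TPM in shRNA-CON and 9.48, 11.8, 11.6 and 12.9 in shRNA-RUS (log2 fold change 0.45, SE 0.096, limma adjusted p = 0.00359), without overlap, and passed in each of 19 alternatives. On day 5 its groups overlapped, with 8.81 ± 0.180 and 8.47 ± 0.939 (SD, n = 4; −0.060, limma adjusted p = 0.630). *Ddx21*, a helicase that acts on rRNA precursors, and *Nolc1*, a chaperone of snoRNPs, were lower on both days (*Ddx21* −0.38 and −0.27; *Nolc1* −0.16 and −0.25 on the log2 scale). *Gnl3*, the GTPase nucleostemin known from stem cells, was lower on day 5 (−0.34, limma adjusted p = 0.0104) and at −0.028 on day 7. *Npm3*, a relative of nucleophosmin, was at 0.077 on day 5 and lower on day 7 (−0.61, limma adjusted p = 5.08e-05), and *Mybbp1a*, a nucleolar partner of transcription factors, passed on day 7 only (−0.16, limma adjusted p = 0.0223), a call that 6 of 19 alternatives did not keep.

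Small subunit processing factors gave 3 of 11 genes lower (27.3%) and 1 higher (9.09%) on day 5, near the 17.9% and 14.8% of all genes, and 7 of 11 lower (63.6%) on day 7, against 25.8%. *Utp15*, part of the complex that first joins the nascent precursor, had 9.65, 9.91, 10.04 and 8.82 with shRNA-CON and 6.45, 5.54, 6.23 and 6.43 with shRNA-RUS on day 5 (log2 fold change −0.63, SE 0.079, limma adjusted p = 0.000388), and 11.3, 11.1, 11.8 and 13.6 and 9.82, 10.2, 8.62 and 9.84 on day 7 (log2 fold change −0.30, SE 0.077, limma adjusted p = 0.0103). *Rrp12*, which acts in export of both subunits, was lower by nearly the same amount on both days (−0.43 and −0.45), with no overlap between its groups. *Heatr1* was lower on both days (−0.29, limma adjusted p = 0.0487; −0.37, limma adjusted p = 0.000477).

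On day 7, *Utp20*, *Wdr43*, *Noc4l* and *Bysl* were also lower, between −0.40 (*Noc4l*) and −0.24 (*Utp20*). *Nob1*, the nuclease that makes the final cut of the small subunit RNA, was higher on day 5 with 24.2, 24.5, 22.8 and 25.5 in shRNA-CON and 29.5, 31.5, 28.1 and 24.9 in shRNA-RUS. Its groups overlapped, and the call (log2 fold change 0.23, SE 0.078, limma adjusted p = 0.0481) was lost in 7 of the 8 fits that left out 1 library and with TPM as deposited (0.074, limma adjusted p = 0.44). *Wdr75*, *Nop14* and *Rrp9* passed on neither day, with −0.24, −0.093 and −0.098 on day 7.

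Among large subunit processing factors, 3 of 9 were lower on day 5 (33.3%, against 17.9% of all genes) and 6 of 9 on day 7 (66.7%, against 25.8%). Their median on day 5 (−0.054) was 0.0071 above that of all genes. *Bop1*, *Pes1* and *Wdr12* encode the PeBoW complex, which is needed to mature the large subunit RNA. *Bop1* had 33.7, 35.2, 36.7 and 39.1 with shRNA-CON and 27.1, 31.3, 30.8 and 23.00 with shRNA-RUS on day 5 (log2 fold change −0.37, SE 0.10, limma adjusted p = 0.0204) and 40.4, 39.8, 40.3 and 39.3 and 27.6, 25.2, 27.7 and 26.97 on day 7 (log2 fold change −0.56, SE 0.041, limma adjusted p = 4.39e-06). *Wdr12* was lower on both days (−0.38, limma adjusted p = 0.00464; −0.59, limma adjusted p = 7.20e-05). *Pes1* was at 0.024 on day 5 and lower on day 7 (−0.22, limma adjusted p = 0.000700), when all 3 partners were lower. *Noc3l* was lower on both days (−0.33 and −0.17), with overlap on day 5.

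*Ftsj3*, a methyltransferase of the large subunit precursor, and *Nop16* were lower on day 7 (−0.22 and −0.33). *Nop2*, which methylates the large subunit RNA, *Rrs1* and *Noc2l* passed on neither day. *Nop2* was the steadiest of the 40 genes in the 4 group means, which ran from 17.9 to 18.5 scaled TPM. *Rrs1* had 23.8 ± 1.08 and 23.8 ± 1.23 on day 5 and 19.4 ± 0.370 and 20.02 ± 1.15 on day 7 (shRNA-CON and shRNA-RUS, SD, n = 4). The annotation places a gene on the opposite strand over 16 of the 40 genes, among them *Nop56*, *Dkc1*, *Nhp2* and *Bop1*, and whether the counting used strand is not given in the sources used here, so their reads and those of the partner cannot be told apart.

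Some of these calls lay near the threshold and were lost when 1 library was left out, while the log2 fold changes kept their direction. In the 8 fits of day 5 that left out 1 library, they ran from −0.43 to −0.28 for *Bop1*, −0.27 to −0.19 for *Npm1*, −0.41 to −0.28 for *Noc3l*, −0.20 to −0.13 for *Nolc1*, −0.36 to −0.21 for *Heatr1* and 0.18 to 0.30 for *Nob1*. On day 5, *Bop1* no longer passed without replicate 3 or 4 of shRNA-CON or 1 of shRNA-RUS (limma adjusted p = 0.0525 to 0.0562), *Npm1* without replicate 2, 3 or 4 of shRNA-CON or 2 or 3 of shRNA-RUS (0.0557 to 0.0792), and *Noc3l* (0.0568 to 0.0807) and *Nolc1* (0.0781 to 0.125) without replicate 1, 3 or 4 of shRNA-CON or 1, 2 or 3 of shRNA-RUS. *Heatr1* passed only where replicate 1 of shRNA-RUS was left out (0.0599 to 0.119 in the other 7 fits), and *Nob1* only where replicate 4 of shRNA-RUS was (0.0589 to 0.128 in the other 7). On day 7, *Mybbp1a* was lost without replicate 1 of shRNA-CON or replicate 1 or 3 of shRNA-RUS (0.0535 to 0.0594), and no other member lost its call.

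The day 5 values of the knockdown effect on *Mycn* and on the ribosome genes differed from those of day 7 for 13 of the 40 genes, tested in 1 fit over the 16 libraries. The difference of the effect between the days passed as higher (less negative or more positive on day 7) for 5 and as lower for 8, against 15.2% higher and 14.6% lower among all genes. *Mycn* (0.57, limma adjusted p = 0.00167), *Polr1b* (0.43, limma adjusted p = 0.00278), *Tcof1* (0.49, limma adjusted p = 0.00905), *Utp15* (0.32, limma adjusted p = 0.0381) and *Gnl3* (0.30, limma adjusted p = 0.0447) were higher by the log2 differences given. The 8 that were lower ran from −0.70 (*Nop10*, limma adjusted p = 1.27e-05) to −0.26 (*Pes1*, limma adjusted p = 0.0152), with *Npm3* at −0.70 and *Nhp2* at −0.66 beside *Nop10*, followed by *Nop16* (−0.51), *Polr1c* (−0.44), *Nop58* (−0.32) and *Nob1* (−0.30). With TPM as deposited 9 were higher and 5 lower, and with scaling to the 75th percentile 3 and 12; of all calls, 3626 were higher and 3464 lower, against 5700 and 2053 with TPM as deposited and 2665 and 4338 with the 75th percentile. The median of all genes moved between −0.038 and 0.19 with these scalings. *Mycn*, *Polr1b*, *Polr1c*, *Npm3*, *Nhp2*, *Nop10* and *Nop16* kept their calls in each of 26 alternatives, although *Polr1c* was at −0.18 (limma adjusted p = 0.0482) with the trend on transcript length removed. *Gnl3*, *Utp15* and *Nob1* did not pass in 10, 11 and 8 of the 16 fits that left out 1 library (limma adjusted p = 0.0603 to 0.0957, 0.0534 to 0.0822 and 0.0503 to 0.0695). *Gnl3* and *Utp15* passed without replicate 4 of shRNA-CON, 1 or 4 of shRNA-RUS on day 5, or replicate 4 of shRNA-CON or 3 of shRNA-RUS on day 7, and *Gnl3* also without replicate 3 of shRNA-CON on day 7; leaving out any other library ended the call. The call of *Nob1* ended without replicate 1 or 3 of shRNA-CON or 1 or 2 of shRNA-RUS on day 5, or replicate 1 or 4 of shRNA-CON or 2 or 3 of shRNA-RUS on day 7.

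Transcript length moved with these differences across all genes. Among protein-coding genes other than the 40, the median log2 fold change of the knockdown on day 5 ran from 0.15 for principal transcripts under 1000 nt (1205 genes) to −0.16 for those over 5000 nt (2591 genes), and on day 7 it ran the other way, from −0.26 (1266 genes) to 0.11 (2625 genes). The difference between the days ran from −0.44 to 0.29. The members called lower in that difference include the shortest ones, *Npm3* (888 nt), *Nhp2* (1042 nt) and *Nop10* (1109 nt). After a smooth curve of the deviation on length had been taken off each library, the difference was −0.38 for *Nop10* (limma adjusted p = 0.000166), −0.32 for *Nhp2* (0.000808) and −0.30 for *Npm3* (0.0120). That of *Nop58* (−0.16, limma adjusted p = 0.193), *Nob1* (−0.13, 0.283), *Utp15* (0.17, 0.229) and *Tcof1* (0.31, 0.0852) no longer passed. With the curve taken off, 8 genes passed that had not before, *Fbl* (0.45, limma adjusted p = 0.000507) and *Gar1* (0.48, 0.0369) as higher and *Ncl* (−0.39, 0.00221), *Utp20* (−0.44, 0.00564), *Heatr1* (−0.37, 0.0216), *Ftsj3* (−0.25, 0.0249), *Bysl* (−0.24, 0.0450) and *Nolc1* (−0.22, 0.0240) as lower, so that 5 of the 40 were higher and 12 lower. *Mycn* was at 0.58 (limma adjusted p = 0.000868), as large as before.

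With the curve taken off, 17 genes were lower and 3 higher on day 5, and 29 were lower and 1 higher on day 7. *Fbl* was then at −0.87 and −0.39, *Nop56* at −0.61 and −0.36, *Nop58* at −0.60 and −0.75 and *Mycn* at −0.88 and −0.28 on the log2 scale on day 5 and day 7. *Nop10* was at 0.14 on day 5 (limma adjusted p = 0.0295) and −0.21 on day 7 (0.00106), smaller on both days but on the same sides. On day 7, *Polr1c* (−0.19, against −0.37 before), *Nhp2* (−0.25 against −0.48) and *Npm3* (−0.35 against −0.61) were also smaller by over 1.5 times, and *Mybbp1a* (−0.26 against −0.16) and *Utp20* (−0.37 against −0.24) larger. *Nolc1* and *Heatr1* no longer passed on day 5 (0.116 and 0.270). *Noc4l* (−0.20, limma adjusted p = 0.0179) and *Rrp9* (−0.22, 0.0470) passed as lower on day 5, and *Polr1a* (−0.21, 0.00878) and *Wdr75* (−0.27, 0.0147) on day 7, which they had not before. *Ncl*, whose principal transcript is annotated at 8202 nt, passed as higher on day 5 (0.16, 0.0440) and as lower on day 7 (−0.21, 0.00459) only in this fit and depends on that length. The part of length in these values was not tested beyond this fit.

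**Figure D3:**
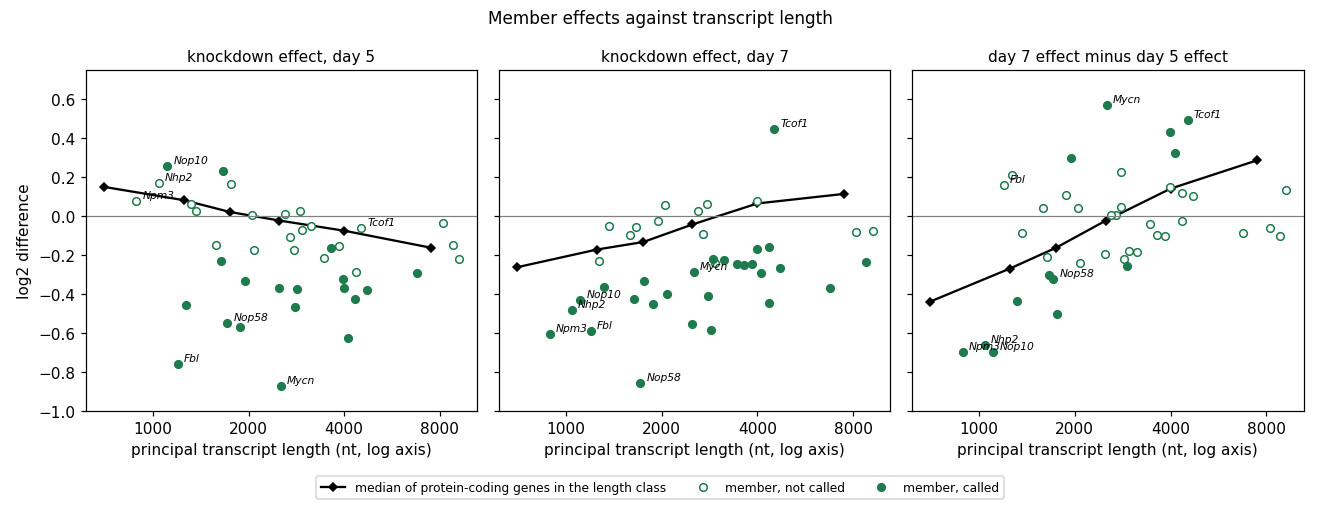
Log2 difference (vertical axes) against principal transcript length in nt (log axis) for the knockdown effect on day 5, on day 7 and their difference; black diamonds are medians of protein-coding genes in 6 length classes, green circles the 40 genes, filled where called. The black line falls from 0.15 to −0.16 on day 5 and rises from −0.26 to 0.11 on day 7 and, for the difference, from −0.44 to 0.29.

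From day 5 to day 7, the 40 genes moved in both directions within each shRNA. In shRNA-CON 8 were higher and 9 lower on day 7, against 26.9% and 21.6% of all genes, and in shRNA-RUS 14 were higher and 14 lower, against 35.0% and 25.8%. These counts depend on the scaling: with TPM as deposited they were 21 and 3 in shRNA-CON and 26 and 5 in shRNA-RUS, and with scaling to the 75th percentile 7 and 13, and 6 and 21. The median of all genes was 0.067 in shRNA-CON and 0.13 in shRNA-RUS after scaling and 0.20 and 0.41 with TPM as deposited. Of all calls in shRNA-CON, 6394 were higher and 5133 lower (8573 and 3434 as deposited, 5373 and 6244 with the 75th percentile). In shRNA-RUS, 8317 were higher and 6135 lower (11801 and 3545 as deposited, 6618 and 7767 with the 75th percentile).

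*Myc* was higher on day 7 in both shRNAs (0.43, limma adjusted p = 0.000469 in shRNA-CON; 0.34, limma adjusted p = 0.00224 in shRNA-RUS). *Mycn* was lower in shRNA-CON (−0.20, limma adjusted p = 0.0496) and higher in shRNA-RUS (0.37, limma adjusted p = 0.000935). The *Mycn* call in shRNA-CON held in only 9 of 26 alternatives (limma adjusted p up to 0.613), and in shRNA-RUS that of *Mycn* held in 24 and that of *Myc* in 25 of 26. The 4 group means of *Mycn* came to 10.5, 5.70, 9.13 and 7.36 scaled TPM in shRNA-CON and shRNA-RUS on day 5 and then on day 7. *Nop58*, *Dkc1*, *Utp15*, *Ddx21*, *Noc3l* and *Ncl* were higher on day 7 in both shRNAs, at 0.57 and 0.25 for *Nop58* and 0.44 and 0.48 for *Dkc1*. *Fbl*, *Nop10*, *Nop16*, *Utp20*, *Wdr75*, *Bysl* and *Rrs1* were lower in both, at −0.34 and −0.18 for *Fbl* and −0.24 and −0.94 for *Nop10*. Of these, *Nop58*, *Dkc1*, *Utp15*, *Ddx21*, *Noc3l*, *Fbl*, *Bysl* and *Rrs1* in shRNA-CON and *Dkc1*, *Utp15*, *Noc3l*, *Nop10* and *Nop16* in shRNA-RUS kept their calls in each of 26 alternatives. The comparisons between days and within days share libraries and are not independent. The value of *Fbl* in shRNA-RUS turned to 0.15 with TPM as deposited and to 0.27 with the length curve taken off (limma adjusted p = 0.000463). With that curve taken off, *Ncl* was at −0.033 in shRNA-CON (limma adjusted p = 0.657) and passed as lower on day 7 in shRNA-RUS (−0.42, limma adjusted p = 8.25e-06), and *Polr1a*, higher in shRNA-RUS by 0.41 before, passed as lower (−0.29, limma adjusted p = 0.0139). *Myc* was then at 0.72 in shRNA-RUS, over 2 times the value above, and ran from 0.17 to 0.72 over the alternatives. *Nop10* was at −0.073 in shRNA-CON (limma adjusted p = 0.149) and −0.45 in shRNA-RUS, and *Nop58* at 0.51 in shRNA-RUS. The calls of *Mycn* in shRNA-CON and of *Polr1c*, *Npm3*, *Tcof1*, *Ddx21*, *Noc4l* and *Rrs1* in shRNA-RUS were lost with it.

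Summed over the 40 genes, the share of a library's TPM was 0.173% ± 0.0040 with shRNA-CON and 0.137% ± 0.0053 with shRNA-RUS on day 5, and 0.200% ± 0.0063 and 0.161% ± 0.0035 on day 7 (SD, n = 4, TPM as deposited). The libraries ran from 0.170% to 0.179% and from 0.130% to 0.143% on day 5, and from 0.193% to 0.208% and from 0.157% to 0.166% on day 7. The groups did not overlap on either day. The sum is carried by the abundant members, *Npm1* and *Ncl* first. These shares are to be read against the shift that genes in general showed without scaling. With TPM as deposited, the all-gene median for the knockdown lay at −0.21 on day 5 and −0.027 on day 7, in log2 units. From day 5 to day 7 it lay at 0.20 in shRNA-CON and 0.41 in shRNA-RUS. Whether the shares moved beyond these shifts was not tested.

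**Figure D4:**
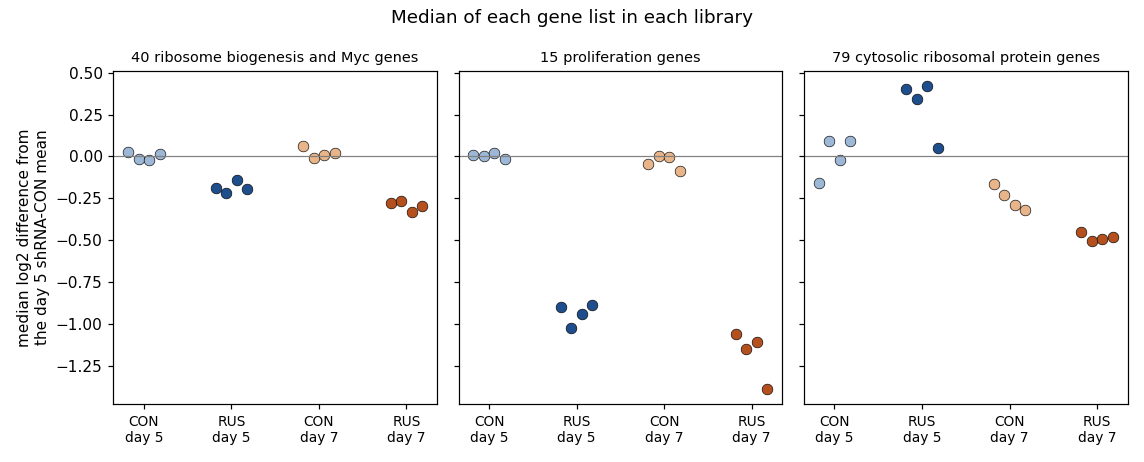
Median over a gene list of the log2 difference from the day 5 shRNA-CON mean (vertical axis) in each of the 16 libraries, for the 40 genes, 15 proliferation genes and 79 cytosolic ribosomal protein genes. The shRNA-RUS libraries lie below shRNA-CON for the first 2 lists on both days; for the ribosomal proteins they lie at 0.053 to 0.42 on day 5 and −0.50 to −0.45 on day 7.

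The other subunit assembly factors outside the 40 were also lower more often than higher in shRNA-RUS. Of 43 other small subunit factors, 17 were lower and 2 higher on day 5, and 26 lower and 1 higher on day 7, with medians of −0.19 and −0.24. *Imp4*, a protein of the U3 snoRNP, had the largest decrease on both days (−1.22, limma adjusted p = 1.69e-05; −1.03, limma adjusted p = 2.32e-06) and *Rrp7a* the largest increase (0.31, limma adjusted p = 0.0175; 0.18, limma adjusted p = 0.0240). Of 45 other large subunit factors, 16 were lower and 4 higher on day 5, and 24 lower and 9 higher on day 7 (17 and 7, and 21 and 8, with the length trend removed). When 1 library was left out, 1 to 4 of the small and 2 to 6 of the large subunit factors were higher on day 5. *Urb2* had the largest decrease on both days (−0.83 and −0.85), and the largest increases were those of *Nsa2* on day 5 (0.36) and the helicase gene *Ddx54* on day 7 (0.48). Among all genes tested, 17.9% were lower and 14.8% higher on day 5, and 25.8% lower and 23.4% higher on day 7.

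The 12 other genes of the RNA polymerase I machinery were called about as often as all genes. On day 5, 3 were lower (25.0%) and 1 higher (8.33%), against 17.9% and 14.8% of all genes, and on day 7, 5 were lower (41.7%) and 1 higher (8.33%), against 25.8% and 23.4%. On day 5, 8 of the 12 had a positive log2 fold change, and their median was 0.093, which is 0.15 above that of all genes and of opposite sign to that of the 40. On day 7 the median was −0.15, and 0.025 with the trend on transcript length removed, when 2 were lower and 3 higher. *Ttf1*, the termination factor, fell most (−0.44 and −0.26), and *Znrd1*, a polymerase subunit, and *Taf1c*, of the promoter factor SL1, rose most on day 5 and day 7 (0.42 and 0.41). Of 9 genes of snoRNP assembly, 2 were lower (22.2%) and 1 higher (11.1%) on day 5, near the shares of all genes, and 8 lower and 1 higher on day 7. With the length trend removed, 4 were lower on day 5 and 5 on day 7. Leaving out 1 library gave 1 to 3 lower and 0 to 2 higher on day 5. *Ruvbl2*, an ATPase of the assembly machinery, had the largest decrease on both days (−0.40, limma adjusted p = 0.0288; −1.03, limma adjusted p = 1.44e-06), and *Pih1d1* (0.30, day 5) and *Naf1* (0.21, day 7) the largest increases. Of 13 nuclear exosome genes tested, whose products trim the precursor, 4 were lower on day 5 and 11 on day 7 and 0 were higher, with *Exosc3* at −0.43 and −0.82. With the length trend removed, 8 exosome genes were lower on day 5 and 7 on day 7. By limma at an unadjusted p under 0.05, 0 exosome genes were higher on day 7 and 0 on day 5.

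The 12 genes listed as the MYC network beside *Myc* and *Mycn* gave 3 calls on day 5 and 7 on day 7. *Max*, the common partner of the network, was higher on both days (0.41, limma adjusted p = 0.00164; 0.95, limma adjusted p = 9.81e-07), with 53.03, 59.9, 60.6 and 60.9 scaled TPM with shRNA-CON and 114, 108, 106 and 119 with shRNA-RUS on day 7. The repressors *Mxd1*, *Mxi1* and *Mnt*, which compete with MYC for MAX, were at 0.27, 0.13 and 0.19 on day 5 without passing, and were higher on day 7 (0.64, limma adjusted p = 0.000255; 0.67, limma adjusted p = 2.29e-06; 0.68, limma adjusted p = 8.50e-05). *Mxd4* was higher on both days (0.40 and 0.17), while *Mxd3*, the member of this group known from dividing cells, was lower (−0.50 and −0.91). The difference between the days passed for *Max* (0.53, limma adjusted p = 0.000427), *Mxi1* (0.52, limma adjusted p = 9.51e-05) and *Mnt* (0.47, limma adjusted p = 0.0148) as higher and for *Mycl* (−0.43, limma adjusted p = 0.0176) as lower. With the length trend removed, *Mnt* no longer passed (0.29, limma adjusted p = 0.123) and *Mxd4* passed as lower (−0.37, 0.00322), which made 2 of the 12 higher and 2 lower, and the median of the difference went from 0.23 to −0.043.

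*Mycl* itself was at 0.017 on day 5 and lower on day 7 (−0.40, limma adjusted p = 0.00804). *Mga*, *Mlx*, *Mlxip*, *Mlxipl* and *Zbtb17* passed on neither day, with log2 fold changes on day 7 of −0.18, 0.033, −0.11, 0.12 and 0.066. In all, 2 of the 12 network genes were higher (16.7%) and 1 lower (8.33%) on day 5, near or under the 14.8% and 17.9% of all genes. On day 7, 5 were higher (41.7%) and 2 lower (16.7%), against 23.4% and 25.8%, and with the length trend removed 5 were higher and 4 lower. Of 25 other genes known as MYC targets, 11 were lower and 3 higher on day 5 (17 and 2 with TPM as deposited, 7 and 5 with scaling to the 75th percentile), and 21 lower and 2 higher on day 7. The largest decreases were those of *Nme1*, a nucleoside diphosphate kinase, on day 5 (−1.19) and *Tert*, the telomerase catalytic subunit, on day 7 (−1.39). *Eif4ebp1*, a repressor of translation initiation, was the largest increase on both days (1.16, limma adjusted p = 0.000143; 0.71, limma adjusted p = 1.33e-06).

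Ribosomal protein genes, the building blocks that these factors assemble, were mostly higher on day 5 and lower on day 7. Of 79 cytosolic ribosomal protein genes, 46 were higher (58.2%) and 1 lower (1.27%) on day 5, against 14.8% and 17.9% of all genes. On day 7, 60 were lower (75.95%) and 0 higher, against 25.8% and 23.4%. The list median was 0.32 on day 5 and −0.22 on day 7, against −0.061 and −0.029 for all genes. *Rps21* had the largest increase of those called on day 5 (0.56) and *Rpl18* the largest decrease on both days (−0.36 and −0.94). By limma at an unadjusted p under 0.05, 1 was higher on day 7. Their transcripts are short, and with the length curve taken off, 39 were higher and 2 lower on day 5 and 33 higher and 15 lower on day 7, so that the direction on day 7 turned with this correction. Relative to the mean of shRNA-CON on day 5, the median of the list in the shRNA-RUS libraries of that day was 0.34 to 0.42 in replicates 1, 2 and 3 and 0.053 in replicate 4. The count on day 5 moved with single libraries and with the scaling, while the median relative to all genes stayed between 0.30 and 0.46 in the fits that left out 1 library: 74 were higher without that replicate 4, 21 to 23 when replicate 1, 2 or 3 of shRNA-RUS or replicate 1 or 3 of shRNA-CON was left out, 24 with TPM as deposited and 7 with quantile normalization. Many of these genes have processed pseudogenes, and their values are uncertain where reads were split among copies.

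All 15 proliferation genes were lower on both days, from −1.44 (*Birc5*, a mitotic and survival factor) to −0.50 (*Pcna*) on day 5 and from −1.72 (*Birc5*) to −0.63 on day 7. Their median was −0.95 on day 5 and −1.16 on day 7, against −0.17 and −0.25 for the 40 genes. How much of the lower values of the 40 genes goes with fewer dividing cells in the shRNA-RUS cultures was not tested. The summed markers of other cell types moved with the shRNA as well, and the sums follow the most abundant genes of each list. The 6 markers of the oligodendrocyte lineage summed to 92.9 to 113 TPM with shRNA-CON and 55.9 to 61.9 TPM with shRNA-RUS on day 5, and to 185 to 214 and 102 to 149 TPM on day 7. Microglia markers were at 73.8 to 79.6 and 59.3 to 73.2 TPM on day 5, with a wider gap on day 7, and endothelial markers at 5.33 to 6.05 and 2.46 to 3.60 TPM on day 5 and 6.58 to 6.99 and 2.67 to 3.56 TPM on day 7. These 3 sums were lower in shRNA-RUS without overlap. By gene, 3 and 4 of the 6 oligodendrocyte lineage markers, 2 and 6 of the 6 microglia markers and 1 and 1 of the 3 endothelial markers tested were called lower on day 5 and day 7, and the other 2 endothelial ones had positive values. Neuron markers were lower without overlap on day 5 (313 to 425 and 246 to 279 TPM) and overlapped on day 7 (692 to 774 and 662 to 781 TPM), and by gene 2 of the 6 were called lower on day 5, and 3 higher and 1 lower on day 7, with a median log2 fold change of 0.33. The sum of the astrocyte markers was higher in shRNA-RUS without overlap on both days, at 3232 to 3530 and 3674 to 3980 TPM on day 5 and 1898 to 1949 and 1951 to 2214 TPM on day 7, but by gene 1 was called higher and 1 lower on day 5 and 2 higher and 2 lower on day 7. Fibroblast and mural markers overlapped on day 5 (28.6 to 33.4 and 23.1 to 34.5 TPM) and were higher in shRNA-RUS on day 7 (15.8 to 17.4 and 32.9 to 37.4 TPM). Their part in these values was not tested.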

How the data were processed

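PolyA RNA from 16 cultures was sequenced on an Illumina platform, and the authors aligned the reads to mm10 with STAR and quantified them with RSEM against a GRCm38 transcript table. The deposited values used here are TPM, 1 column per library and 1 table per day. Each table also holds columns from the authors' own DESeq2 comparison, deposited as a signal (mean of normalized counts), a log2 fold change with its SE, a score (the Wald statistic) and p-values; these columns were not used. Strand use in counting is not given in the sources used here, and the depth of each library is unknown, so that no counting interval is given.

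TPM were divided by median-ratio library factors (from genes at 1 TPM or more in every library), and log2(scaled TPM + 0.1) was tested with limma 3.58.1 in R 4.3.3, with a trend, leaving out genes whose mean was under 0.1 TPM. Fold changes are on that scale, which understates the change of low genes. Each knockdown test used the 8 libraries of its day, with factors from those, and the changes between days and the difference of the knockdown effect used 1 fit of 16. The printed levels use the factors of all 16 libraries. The fit of the knockdown within each day was tested on simulated data, and the other steps were not. Groups came from the labels, and a sample's column was found by its table's day and its name. Replicate numbers did not pair the libraries (see the correlations under the processing alternatives). Alternatives were other scalings, pseudocounts and filters, no trend, a replicate block, all 16 libraries in 1 fit and leaving out each library; a fit with the trend on transcript length removed was added after seeing the data.

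The members and gene lists were chosen with earlier results of these data known. All 40 members are named; of each other list, the called genes with the largest increase and decrease on each day at a mean of at least 1 TPM; all genes of the MYC network; and *Gm20754*, *Mki67* and *Pcna*. Gene positions, transcript lengths and snoRNAs are from GENCODE vM21 on GRCm38 by symbol, and promoters are from RefSeq (GRCm38.p6), which had no entry here for *Npm1*, *Rrs1*, *Tcof1*, *Fbl*, *Rrp12*, *Bop1* and *Myc*.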

Additional observations from a re-analysis of the deposited data

Results flagged for a closer look

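Among 160 sets of 4 libraries (40 genes in 4 groups), 7 held a library far from the other 3, and chance gives about 1 in 20. They were *Polr1a* at 27.35 scaled TPM in replicate 2 of shRNA-CON on day 7 (the others 23.79 to 24.34), *Nop58* at 87.16 in replicate 2 of shRNA-CON on day 5 (77.16 to 78.21), and *Utp20* at 16.59 in replicate 4 of shRNA-RUS on day 5 (13.03 to 13.29). In shRNA-RUS on day 7 they were *Nolc1* at 39.2 (34.99 to 35.26) and *Ddx21* at 31.39 (25.68 to 26.54) in replicate 1, *Heatr1* at 9.051 in replicate 3 (10.14 to 10.34), and *Nop2* at 18.96 in replicate 2 (18.25 to 18.35).

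The knockdown effect differed between the days, by limma's test of the difference itself, for 13 genes, 5 higher and 8 lower. Such calls were common among all genes tested, with 15.2% higher and 14.6% lower. On the log2 scale, day 7 minus day 5, the difference was 0.57 for *Mycn* (adjusted p = 0.00167), 0.43 for *Polr1b* (0.00278), 0.49 for *Tcof1* (0.00905), 0.32 for *Utp15* (0.0381) and 0.30 for *Gnl3* (0.0447). It was −0.70 for *Nop10* (1.27e-05), −0.70 for *Npm3* (0.0014), −0.66 for *Nhp2* (0.000276), −0.51 for *Nop16* (0.00796), −0.44 for *Polr1c* (0.000552), −0.32 for *Nop58* (0.0151), −0.30 for *Nob1* (0.032) and −0.26 for *Pes1* (0.0153). With the length trend removed, *Tcof1*, *Utp15*, *Nop58* and *Nob1* no longer passed (limma adjusted p = 0.0852, 0.229, 0.193 and 0.283). In that fit 5 of the 40 genes were higher and 12 lower.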

How the results depend on the processing

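On day 7, *Tcof1* and 24 of the 26 genes called lower kept their calls in each of 19 alternatives, and on day 5 11 of the 17 called lower did. The count of members higher on day 5 (2) was 0 with TPM as deposited and with the replicate block, 1 with no filter and with no trend, and 1 to 4 when 1 library was left out (4 without replicate 4 of shRNA-RUS); that of members lower on day 5 (17) was then 11 to 18, lowest without replicate 4 of shRNA-CON. From day 5 to day 7, TPM as deposited gave 21 higher and 3 lower in shRNA-CON and 26 and 5 in shRNA-RUS, where scaling to the 75th percentile gave 6 higher. The difference between days was called higher for 9 and lower for 5 members with TPM as deposited, and higher for 3 with the 75th percentile, no filter, quantile normalization and the replicate block, and for 3 to 6 when 1 library was left out (3 without replicates 1, 2 or 3 of shRNA-CON or 2 of shRNA-RUS on day 5, or 1 or 2 of shRNA-CON or 1, 2 or 4 of shRNA-RUS on day 7). The replicate block left 12 members lower on day 5 and 25 on day 7; same-numbered libraries correlated at −0.099 to 0.033, not every library correlated best with its own number, and the numbers were not taken to pair them. Median-based factors, the 75th percentile and TPM as deposited differ in the shift of all genes given in the report, by construction.

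Directions that turned were mostly of genes near 0. On day 5 they were, with the 75th percentile, *Ncl* 0.046, *Tcof1* 0.019, *Wdr75* 0.0081 and *Ftsj3* 0.027; with TPM as deposited, *Myc* −0.13, *Polr1c* −0.099, *Npm3* −0.081, *Pes1* −0.13, *Nop2* −0.15 and *Rrs1* −0.15; with quantile normalization, *Polr1c* −0.0054, *Tcof1* 0.063 and *Pes1* −0.033; and with the length trend removed, *Myc* −0.060, *Polr1c* −0.032, *Ncl* 0.16, *Npm3* −0.071, *Tcof1* 0.017, *Utp20* 0.061 and *Rrs1* −0.024. On day 7, with the length trend removed, they were *Myc* 0.11, *Polr1b* −0.0070, *Gnl3* 0.056, *Rrp9* 0.030 and *Nob1* 0.059. Between days, with the length trend removed, *Ncl* was −0.033 in shRNA-CON, and in shRNA-RUS *Polr1a* was −0.29, *Ncl* −0.42, *Npm3* 0.019 and *Fbl* 0.27, and the member median relative to all genes −0.034 (−0.14 without this step). With TPM as deposited, *Fbl* was 0.15, *Noc4l* 0.087, *Wdr12* 0.036 and *Rrs1* 0.073 in shRNA-RUS. Leaving out 1 library gave ranges across 0 for *Myc* (−0.018 to 0.088), *Nop2* (−0.0077 to 0.034), *Pes1* (−0.022 to 0.062) and *Rrs1* (−0.028 to 0.031) on day 5 and for *Gnl3* (−0.068 to 0.0080) and *Nop2* (−0.0090 to 0.057) on day 7. The log2 ratio of *Mycn* to *Myc* in shRNA-RUS differed between days by −0.025 with 1 added to both TPM and by −0.011 to 0.076 when 1 library was left out. Its knockdown difference on day 7 was then −0.30 to −0.18, and without replicate 4 of shRNA-CON the exact permutation p was 0.0286. The cause of these changes was not tested.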
